A study of Mus musculus with 21 samples.

Results

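Mouse embryonic stem (ES) cells kept in the series' medium labelled LIF HP were compared with cells kept in the medium labelled CH+LIF HP. The comparison used every library that carried either label, 3 of each, which is 6 of the 21 RNA-seq libraries of the series. Both groups were E14Tg2a, a male ES cell line of 129 background that carries a destabilised green fluorescent protein (GFPd2) inserted at 1 allele of REX1, the gene listed as Zfp42 in these tables. LIF is leukaemia inhibitory factor, and CH is CHIR99021, an inhibitor of the kinase GSK3. The growth protocol, 1 text for all libraries, gave NDiff227 medium with CHIR99021 at 3 µM and PD0325901 (PD), a MEK inhibitor, at 1 µM for 1 week. It then gave alternating addition and withdrawal of CH, PD and LIF at each passage, so all libraries share this history as far as the labels say. The series sampled cells at zero passage and after 1 and 2 months of culture. The labels do not spell out LP and HP, and no time is assigned to them here. The labels do not say that the 3 replicates of a group were separate cultures, so p-values measure only the spread between these samples, which may be technical. Each group is 1 cell line, and cells were profiled in bulk, so fewer cells of a kind and less RNA per cell cannot be told apart.

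Mouse ES cells hold naive pluripotency through a few signals. LIF acts through its receptor and gp130 on STAT3, which keeps Klf4, Tfcp2l1 and other naive factors transcribed. GSK3 inhibition spares beta-catenin from degradation, relieves repression by Tcf7l1 and raises WNT target genes. Autocrine FGF4 acts through RAS, RAF, MEK and ERK to move cells toward the formative state, and ERK induces its own inhibitors of the Sprouty and Dusp families together with the ETS factors Etv4 and Etv5. The mixture of a MEK inhibitor with a GSK3 inhibitor is called 2i, and with LIF it holds cells in the naive state.

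The 6 libraries held 1184797 to 2084432 reads assigned to genes, against 1132126 to 3783043 over all 21, and 12466 to 13562 genes with at least 1 read. The share of reads without a unique alignment was 30.3%, 35.5% and 34.4% in the LIF HP libraries and 28%, 28.3% and 25.6% in the CH+LIF HP libraries. Reads outside any listed gene made up 13.25%, 8.46% and 16.69% against 16.71%, 17.82% and 22.94%. Reads that fitted more than 1 gene made up 0.549%, 0.573% and 0.683% against 0.429%, 0.434% and 0.340%. None of these shares overlapped between the groups, and their part in the results was not tested. The scaling factors that edgeR gave were 0.962, 0.850 and 0.653 for the LIF HP libraries and 1.005, 1.010 and 1.113 for the CH+LIF HP libraries, so the 2 groups did not overlap in them. Each LIF HP library had a mean correlation of log2 levels with its own replicates of 0.928 to 0.933, across genes, and of 0.874 to 0.902 with the CH+LIF HP libraries. All 7 ES cell markers had reads in both groups, with summed levels of 1159 to 1285 CPM (reads of the gene scaled to a common library total) in LIF HP and 1286 to 1449 CPM in CH+LIF HP. Of the fibroblast markers, Col3a1, Dcn and Postn were at 0 in all 6 libraries, and the 7 markers summed to 7.39 to 9.79 CPM in LIF HP and 11.7 to 20.6 CPM in CH+LIF HP. Primitive endoderm markers summed to 2.46 to 4.64 and 0.649 to 4.29 CPM, with Sox7 at 0 in all 6 libraries. Mesendoderm markers summed to 9.27 to 24.6 and 7.16 to 10.7 CPM, with Mesp1 at 0 in all 6 and Gsc at 4.64, 14.8 and 4.12 CPM in LIF HP and 0 in CH+LIF HP. Neural markers summed to 85.6 to 132 and 45.4 to 55.6 CPM, most of it Tubb3.

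The question of this comparison was how ES cells with LIF alone in the label differed from cells with CH and LIF. In edgeR's quasi-likelihood test at an adjusted p under 0.05, 63 of 10643 genes tested (0.592%) were higher in LIF HP and 93 (0.874%) were lower, together 1.47% of the genes. The median log2 fold change over all genes tested was 0.0074. The test took its spread from all 7 groups of the series, and the same test on the 6 libraries alone called 1176 of 8973 genes (13.1%), among them every 1 of these genes that it tested. Leaving out 1 of the 6 libraries cut the calls to between 29, without LIF HP replicate 2, and 69, without LIF HP replicate 1. Of libraries of other groups, 2 moved the count by over 1.5 times, the first replicates of 2i+LIF PO (266 genes called in its absence) and 2i+LIF LP (316). Of the genes called, 22 were called in every 1 of these 6 fits, and they are named as the firmest calls here. The higher ones were Calcoco2, Fam25c, Krtdap and S100a13. The 18 lower ones were Adam23, Ddx58, Dnmt3l, Dusp6, Enox1, Epb41l4a, Etv1, Etv4, Kif11, Majin, Manba, Pdk1, Slc39a14, Slc7a7, Tgm3, Trh, Utf1 and Zfp462. All 63 and 93 kept their sign in every alternative run that fitted them. These runs reused the same libraries, so a change of sign was unlikely from the start. For none of the 63 and 93 did CPM of the groups overlap. Over all genes tested this held for 29.9%, 15.3% higher and 14.6% lower in LIF HP. The pathway and marker lists below held 393 tested genes, of which 30 (7.63%) were called, 8 higher and 22 lower. The 7 list genes among the firmest calls were Dnmt3l, Dusp6, Etv1, Etv4, Krtdap, Pdk1 and Utf1.

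**Figure D1:**
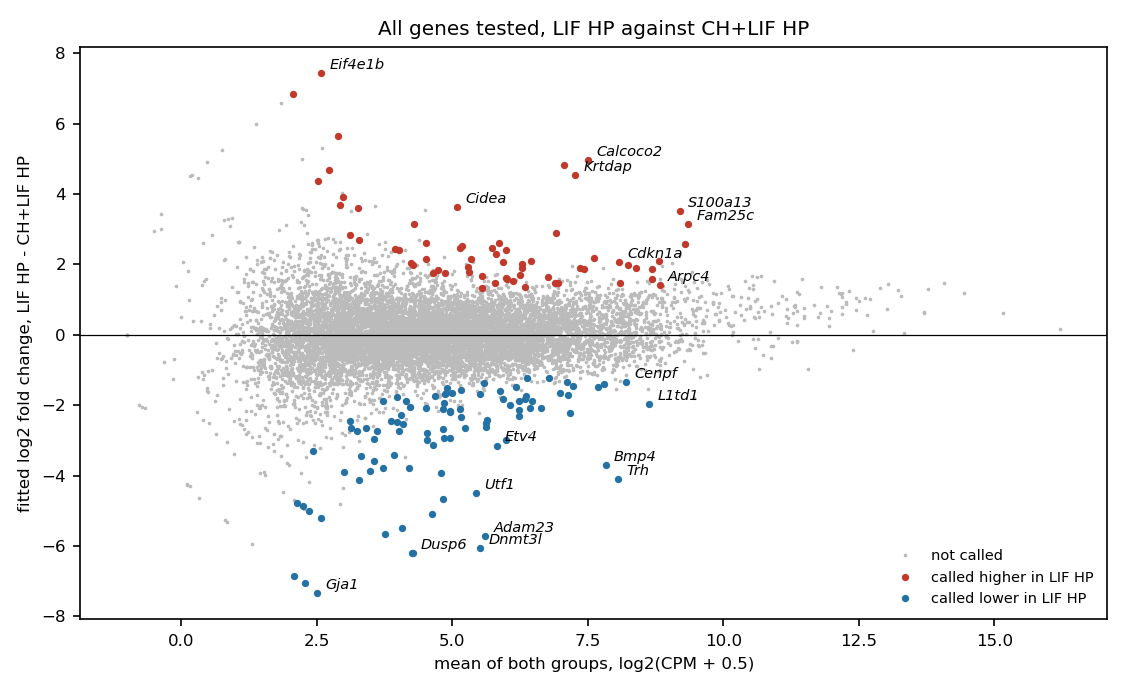
Log2 fold change of LIF HP over CH+LIF HP (vertical axis) against the log2 mean level over the 6 libraries in CPM (horizontal axis), 1 point per gene tested. Coloured points are the 63 genes called higher and the 93 called lower by edgeR, and gene names mark some of those described in the text. Of the called genes that are named, Dusp6 and Dnmt3l lie far below 0 and Krtdap and Calcoco2 far above it.

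Genes that ERK induces held more calls than any other list. Of 19 tested members of this list, 5 fell, none rose, and 18 had a negative log2 fold change, with a median of -1.09. Dusp6, the phosphatase that inactivates ERK in the cytoplasm, stood at 0, 1.23 and 0 CPM in LIF HP and at 30.5, 40.5 and 40.4 CPM in CH+LIF HP. With 2 reads in LIF HP, the ratio of pooled levels, higher group over lower here and below, was 84.7, with a 95% counting interval of 23.1 to 705 (adjusted p = 0.000988). Spry4, an inhibitor of receptor signalling to RAS, had no read in LIF HP and 6.49, 4.29 and 15.2 CPM in CH+LIF HP. Its pooled level was at least 11.9-fold lower (adjusted p = 0.0153), counting 3 reads over the group as the floor. Egr1, an immediate early zinc finger factor, was at 0.515, 0.616 and 0 CPM against 14.9, 14.3 and 47.2 CPM. Its ratio of pooled levels was 52.7, with an interval of 14.3 to 440 (adjusted p = 0.0127). For none of these did any LIF HP library reach the lowest CH+LIF HP library.

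Etv4 and Etv1, of the PEA3 group of ETS factors, also fell. Etv4 was at 13.4, 14.2 and 5.15 CPM in LIF HP and at 96.7, 104 and 102 CPM in CH+LIF HP. It fell by 3.15 on the log2 scale (SE 0.40, adjusted p = 8.44e-05). Etv1 was at 7.73, 5.54 and 3.09 CPM against 36.3, 36.7 and 47.2 CPM, and fell by 2.80 on the log2 scale (SE 0.52, adjusted p = 0.00577). Etv5, the other member of that group, was at 224, 169 and 230 CPM against 398, 265 and 241 CPM. Its ranges were separate too, but it did not pass the test (log2 fold change -0.54, adjusted p = 0.501). Spry2, another Sprouty inhibitor, was at 86.1, 57.3 and 69 CPM against 181, 193 and 156.1 CPM (log2 fold change -1.32, adjusted p = 0.105). Its groups did not overlap, but it missed the threshold, as did Spred1 at -1.86 and Phlda1 at -1.79. Junb was the 1 member with a positive log2 fold change, of 0.49, and was not called. The list median lay between -1.37 and -1.19 over the fits that left out 1 of the 6 libraries, with 3 to 5 members called. Calls of Spry4 and Egr1 were lost without any 1 LIF HP library or without CH+LIF HP replicate 3, with adjusted p up to 0.0988 and 0.0877. In the 6 libraries alone, 9 of the members were called lower and none higher, and that fit called 13.1% of all genes it tested.

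These low levels of ERK targets sat in libraries whose label, LIF HP, does not name a MEK inhibitor. Mean Dusp6 levels over the series were 0.411 CPM there, and 3.37 and 2.85 CPM in the groups 2i+LIF HP and 2i+LIF PO. In the other 4 groups they ran from 20.5 CPM in 2i+LIF LP to 38 CPM in CH+LIF LP, with LIF LP at 27.6 CPM. Mean Etv4 levels were 10.9 CPM in LIF HP, against 43.6 and 5.26 CPM in 2i+LIF HP and 2i+LIF PO, and lay between 101 and 155.1 CPM in the other 4 groups. For Dusp6 the libraries of 2i+LIF LP ran from 0.701 to 34.4 CPM. Mean Etv1 levels were 5.45 CPM in LIF HP and 42.1 CPM in LIF LP. The group 2i+LIF HP had a mean of 27.2 CPM for this gene, and 2i+LIF PO one of 9.52 CPM. For Dusp6, Etv4 and Etv1 every LIF HP library lay below every LIF LP library, and the place of LIF HP among the groups with 2i in the label varied with the gene. The 2i+LIF PO libraries carried a run number that no other library shared. Their replicate 1 had 39.1% of its gene reads on mitochondrial genes. None of these comparisons between groups was tested. Whether PD was in the medium when these cells were collected is not given in the sources used here, so a direction drawn from the label LIF HP rests on that label.

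**Figure D2:**
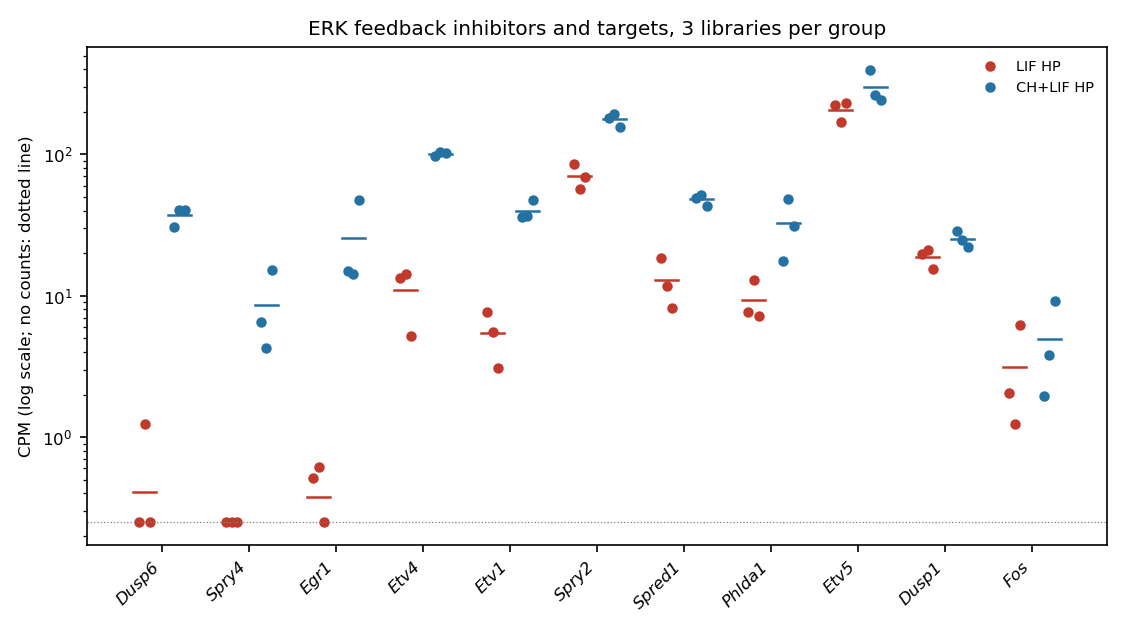
Levels in CPM (vertical axis, log scale) of ERK target and feedback genes in each of the 3 LIF HP and 3 CH+LIF HP libraries, 1 point per library, with bars at group means and libraries without a read on the dotted line. Dusp6, Spry4 and Egr1 sit at or near 0 in LIF HP. Etv4, Etv1 and Etv5 lie below every CH+LIF HP library, with Etv5 nearest to them.

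Transcripts of components upstream of ERK were not called in either direction, and these levels do not measure the signal itself. None of 18 tested FGF ligands, receptors and RAS to ERK components passed the test, and their median log2 fold change was -0.19. An unadjusted p under 0.05 was reached by 1 higher and 1 lower, against 14.7% of all genes tested. Fgf4, the main FGF of ES cells, was at 202, 228 and 243 CPM in LIF HP and 86.3, 102 and 101 CPM in CH+LIF HP. These values did not overlap and were higher in LIF HP, with a log2 fold change of 1.22 (SE 0.36) and an adjusted p of 0.0949.

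The WNT list bears on CH, the agent that sets the 2 labels apart, and none of its genes passed the test. Of 14 tested WNT target and feedback genes, 9 had positive and 5 negative log2 fold changes, with a median of 0.13 that ran from -0.09 to 0.75 when 1 of the 6 libraries was left out. Axin2, the feedback scaffold of the destruction complex and the usual readout of beta-catenin activity, was at 12.4, 8.62 and 6.18 CPM in LIF HP. In CH+LIF HP it was at 6.49, 4.77 and 5.33 CPM (log2 fold change 0.75, SE 0.78, adjusted p = 0.712), and the ranges overlapped. Sp5, a direct beta-catenin target that represses others, was at 19.6, 30.2 and 23.7 CPM against 46.7, 33.4 and 17.5 CPM (log2 fold change -0.42, SE 0.66, adjusted p = 0.821). Both genes had their highest group means in 2i+LIF HP, 58.7 CPM for Axin2 and 361 CPM for Sp5. In CH+LIF HP the means were 5.53 and 32.5 CPM, below every 2i+LIF HP library. Axin2 in the other groups with 2i in the label, at 5.23 to 14.8 CPM in 2i+LIF PO and 1.68 to 28.8 CPM in 2i+LIF LP, overlapped CH+LIF HP. These differences were not tested here. Cdx1, a homeobox target of WNT, was at 31.9, 36.3 and 38.1 CPM in LIF HP against 6.49, 3.82 and 6.09 CPM, but missed the threshold (log2 fold change 2.70, adjusted p = 0.0969). Ccnd2, a D-type cyclin, was at 2.06, 1.85 and 2.06 CPM against 17.5, 7.63 and 16.8 CPM (log2 fold change -2.76, adjusted p = 0.0552). None of 20 WNT relay components was called, with a median of -0.20 (-0.64 to 0.07 with 1 library left out). The nearest was the receptor Fzd5, at 29.9, 16.6 and 20.6 CPM against 56.4, 68.2 and 55.6 CPM (adjusted p = 0.0504).

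LIF was named in both labels, and 1 of 19 tested genes of its receptor, STAT3 and targets passed the test. Il6ra, the interleukin 6 receptor, was at 7.73, 4.93 and 10.3 CPM in LIF HP and 39.6, 53 and 52.5 CPM in CH+LIF HP. It fell by 2.69 on the log2 scale (SE 0.54, adjusted p = 0.012), and the call was lost without LIF HP replicate 1 or 2, with adjusted p up to 0.0988. Socs3, the feedback inhibitor that STAT3 induces, was at 40.7, 38.2 and 26.8 CPM against 24, 29.1 and 45.7 CPM (log2 fold change 0.11, SE 0.56, adjusted p = 0.958). Lifr, the LIF receptor, was at 18.5 to 30.4 CPM against 61 to 89.9 CPM, without a call (log2 fold change -1.58, adjusted p = 0.136). The median of the list was 0.11, and -0.18 to 0.31 with 1 of the 6 libraries left out.

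Naive pluripotency factors were mostly without a call. Of 20 tested, 1 rose and none fell, with a median log2 fold change of 0.18 that ran from 0.05 to 0.24 when 1 of the 6 libraries was left out. In the 6 libraries alone, 1 was called higher and 4 lower, against 13.1% of all genes that fit tested. The gene that rose in the fit of all 21 libraries was Eif4e1b, an oocyte form of the cap-binding protein. The fit of the 6 libraries alone did not test it, and DESeq2 gave no adjusted p for it. It had 16.5, 10.5 and 6.18 CPM in LIF HP and no read in CH+LIF HP. It was at least 20-fold higher (adjusted p = 0.0178), and the call was lost without any 1 CH+LIF HP library or without LIF HP replicate 1 or 2, with adjusted p up to 0.109. Nanog was at 254, 573 and 338 CPM against 197, 244 and 203 CPM, and Klf5 at 1402, 889 and 995 CPM against 1930, 1860 and 2647 CPM. Neither pair of ranges overlapped, and neither gene was called (adjusted p = 0.278 and 0.219). Zfp42, the locus of the reporter, was at 57.2, 54.8 and 68 CPM against 94.7, 100 and 117 CPM (log2 fold change -0.79, SE 0.36, adjusted p = 0.301). Esrrb, an orphan nuclear receptor that GSK3 inhibition releases from repression, was at 135 to 246 CPM, a range that held all 3 CH+LIF HP libraries (log2 fold change 0.07, SE 0.33).

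Among 13 tested core pluripotency factors, 2 fell and none rose, with a median of -0.76. Utf1, a chromatin factor of undifferentiated cells, was at 1.03, 6.77 and 3.09 CPM in LIF HP and 69.4, 86.8 and 89.9 CPM in CH+LIF HP. It fell by 4.49 on the log2 scale (SE 0.74, adjusted p = 0.00178), and it stayed called without any 1 of the 6 libraries. Pou5f1 and Sox2 were not called, at log2 fold changes of 0.70 and -0.58.

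Formative and primed epiblast genes, which mark the step out of the naive state, had a median of -1.19 over 14 tested, or -1.13 with a member that has no read in LIF HP at its bound. Of these, 3 fell and none rose. They were Etv4, described above, Otx2 and Slc7a3. Otx2, the homeobox factor of the formative epiblast, was at 0, 3.7 and 0 CPM in LIF HP and 29.2, 15.7 and 15.2 CPM in CH+LIF HP. It fell by 3.86 on the log2 scale (SE 0.81, adjusted p = 0.0141). Slc7a3, an arginine transporter, was at 11.3, 16.6 and 13.4 CPM against 73.3, 106 and 73.1 CPM and fell by 2.61 (SE 0.59, adjusted p = 0.0208). For both, the lowest CH+LIF HP library was above every LIF HP library. The call of Otx2 was lost without CH+LIF HP replicate 1 or LIF HP replicate 1 or 3, with adjusted p up to 0.0745. That of Slc7a3 was lost without any 1 of the 6 libraries, with adjusted p up to 0.0988. Pou3f1, Oct6 by its protein name, had no read in LIF HP and 2.6, 1.91 and 0 CPM in CH+LIF HP, too few for a call.

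Dnmt3l fell more than any other gene of the DNA methylation list. It encodes a cofactor that has no catalytic activity of its own and stimulates the de novo methyltransferases. It was at 2.58, 0.616 and 0 CPM in LIF HP and 74, 85.9 and 107 CPM in CH+LIF HP, with no overlap. The fall was 6.05 on the log2 scale (SE 0.79, adjusted p = 0.000109), and it stayed called without any 1 of the 6 libraries. It was the 1 call among 14 tested writers, erasers and readers, whose median was -0.45. Dnmt3b was at 22.7, 19.7 and 20.6 CPM against 42.8, 36.7 and 44.9 CPM (log2 fold change -0.98, adjusted p = 0.239). Dnmt3a was at 21.6 to 41.2 CPM against 16.2 to 36.7 CPM, with overlap. Of 20 tested imprinted genes none was called, with a median of -0.41 (-0.65 to -0.22 with 1 of the 6 libraries left out). An unadjusted p under 0.05 was reached by 7, all lower, against 14.7% of all genes tested, 809 higher and 758 lower. In the 6 libraries alone 7 were called lower and none higher, against 13.1% of all genes that fit tested. Meg3, a maternally expressed noncoding RNA, was at 536, 37.6 and 379 CPM in LIF HP against 729, 911 and 1647 CPM, so LIF HP replicate 2 lay far below its own replicates. None of 19 tested germline genes was called, with a median of -0.63. Stra8, described below, and Majin were called higher and lower but were not on this list.

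Bmp4, Id3 and Fst fell. In the NODAL, activin and BMP list 3 of 21 tested genes fell and none rose, with a median of -0.47 (-0.63 to -0.31 with 1 of the 6 libraries left out). Bmp4, a ligand that ES cells make themselves, was at 27.3, 33.9 and 36.1 CPM in LIF HP and 374, 426 and 462 CPM in CH+LIF HP. It fell by 3.70 on the log2 scale (SE 0.73, adjusted p = 0.0103). Id3, a direct target of BMP signalling that blocks basic helix-loop-helix factors, was at 1.03, 2.46 and 3.09 CPM against 68.1, 51 and 42.6 CPM. It fell by 4.67 on the log2 scale (SE 1.00, adjusted p = 0.0162). Its relatives Id1, at 14.9, 16 and 16.5 CPM against 78.5, 46.3 and 95.2 CPM, and Id2, at 1.03 to 7.39 CPM against 11.9 to 24 CPM, also had separate ranges. They missed the threshold, with log2 fold changes of -2.21 and -1.79 and adjusted p of 0.0595 and 0.296. Fst, the secreted trap of activin, had 1 read in LIF HP and 7.14, 8.59 and 9.14 CPM in CH+LIF HP. The ratio of pooled levels was 37.6, with an interval of 6.37 to 1519 (adjusted p = 0.0234). Nodal and its inhibitor Lefty1 had overlapping ranges. The call of Bmp4 was lost without any 1 LIF HP library, that of Id3 also without CH+LIF HP replicate 1, and that of Fst without any 1 of the 6, with adjusted p up to 0.0751, 0.0988 and 0.115.

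Krtdap, Fam25c and the S100 genes were the firmest or most abundant rises. Krtdap (chromosome 7, 30787896 to 30791097, GRCm38) encodes a small secreted protein of differentiating keratinocytes. It was at 200, 311 and 374 CPM in LIF HP and 17.5, 9.54 and 10.7 CPM in CH+LIF HP, and it rose by a log2 fold change of 4.55 (SE 0.53, adjusted p = 4.26e-05). Fam25c (chromosome 14, 34351881 to 34355433) was at 804, 1171 and 1529 CPM against 148.6, 147.9 and 97.5 CPM, a rise of 3.15 on the log2 scale (SE 0.40, adjusted p = 8.44e-05). Both stayed called without any 1 of the 6 libraries. S100a13 and S100a1 are neighbours on chromosome 3 that encode small calcium-binding proteins. S100a13 was at 738, 1093 and 1398 CPM against 78.5, 114 and 87.6 CPM, a rise of 3.52 (SE 0.60, adjusted p = 0.00219). S100a1 was at 849, 945 and 1413 CPM against 186, 187 and 164 CPM, a rise of 2.58 (SE 0.56, adjusted p = 0.0176). S100a6, of the same cluster, was at 511, 952 and 728 CPM against 200, 177 and 135 CPM, a rise of 2.10 (SE 0.48, adjusted p = 0.0232). In all 5 genes the lowest LIF HP library was above the highest CH+LIF HP library. S100a13 stayed called without any 1 of the 6 libraries. The calls of S100a1 and S100a6 were lost without any 1 CH+LIF HP library or without LIF HP replicate 2 or 3, with adjusted p up to 0.107 and 0.164. Arpc4, a subunit of the ARP2/3 actin complex, was the other abundant rise (log2 fold change 1.42, adjusted p = 0.0402), with an adjusted p of 0.0644 when exonic length was taken into account, as described below, and calls lost without any 1 of the 6 libraries (adjusted p up to 0.213).

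The promoter windows of 4 of the genes described are shown because they are among the leading falls and rises. Each window runs from 250 bases before to 50 bases after the RefSeq start on GRCm38.p6, 5′ to 3′ on the gene's strand. They are chr10:99262981-99263280 (+) for Dusp6, chr14:46390620-46390919 (-) for Bmp4, chr7:30787655-30787954 (+) for Krtdap and chr14:34355344-34355643 (-) for Fam25c. Capitals mark matches on either strand to CCGGAAG, the core bound by many ETS factors, to TGANTCA, the AP-1 site, and to TATAAA, the TATA box.
Dusp6: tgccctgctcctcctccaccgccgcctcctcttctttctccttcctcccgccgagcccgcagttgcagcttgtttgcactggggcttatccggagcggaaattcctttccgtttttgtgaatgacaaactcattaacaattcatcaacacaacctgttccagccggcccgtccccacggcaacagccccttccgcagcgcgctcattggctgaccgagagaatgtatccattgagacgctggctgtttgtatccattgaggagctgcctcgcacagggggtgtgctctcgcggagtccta
Bmp4: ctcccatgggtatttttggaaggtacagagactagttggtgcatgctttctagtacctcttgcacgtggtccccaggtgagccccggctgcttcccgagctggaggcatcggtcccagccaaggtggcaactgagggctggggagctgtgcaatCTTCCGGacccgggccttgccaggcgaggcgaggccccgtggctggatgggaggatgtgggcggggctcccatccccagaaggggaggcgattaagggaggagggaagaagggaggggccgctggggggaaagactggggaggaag
Krtdap: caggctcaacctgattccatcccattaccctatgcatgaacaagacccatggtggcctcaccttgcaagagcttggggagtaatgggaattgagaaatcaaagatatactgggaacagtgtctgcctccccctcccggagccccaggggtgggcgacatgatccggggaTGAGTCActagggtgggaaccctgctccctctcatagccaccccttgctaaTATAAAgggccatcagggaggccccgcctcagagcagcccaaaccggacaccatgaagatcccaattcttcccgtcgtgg
Fam25c: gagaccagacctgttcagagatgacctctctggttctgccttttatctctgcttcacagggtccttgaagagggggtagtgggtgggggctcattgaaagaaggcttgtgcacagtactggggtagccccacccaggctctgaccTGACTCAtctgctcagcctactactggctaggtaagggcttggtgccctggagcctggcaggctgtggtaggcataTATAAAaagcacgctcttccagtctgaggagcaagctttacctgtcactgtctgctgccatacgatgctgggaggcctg

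The window of Dusp6 held none of the 3 motifs and 19 CpG, and that of Bmp4 held 1 CCGGAAG match on the opposite strand, 96 bases before the start, and 12 CpG. Krtdap and Fam25c each held 1 AP-1 match and 1 TATAAA, the latter 30 and 29 bases before the RefSeq start, with 7 and 2 CpG. Those RefSeq starts lay 9 and 40 bases inside the GENCODE genes whose positions are given above, so the Fam25c TATAAA fell within the GENCODE gene. Over the genes called, windows were found for 50 of the 63 higher and 72 of the 93 lower. CCGGAAG was in 10% of windows of the higher, 8.33% of the lower, 20.5% of tested genes and 8.86% of all 32851 windows. TGANTCA was in 6%, 2.78%, 4.07% and 7.81%, and TATAAA in 6%, 16.7%, 6.22% and 13.6%, in the same order. The median number of CpG was 13.5 in higher, 19 in lower, 22 in tested genes and 7 in all windows. These are descriptions of letters in a short window and not of binding.

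Of 8 tested keratinocyte and cornified envelope genes, 2 rose and none fell, with a median of 1.47 (0.81 to 1.69 with 1 of the 6 libraries left out, and 1 call in each of these fits). Beside Krtdap the other was Sfn, 14-3-3 sigma, a p53 target and epithelial scaffold, at 74.7, 110 and 82.4 CPM in LIF HP and 22.1, 14.3 and 11.4 CPM in CH+LIF HP. It rose by 2.48 on the log2 scale (SE 0.60, adjusted p = 0.0311), a call lost without any 1 of the 6 libraries (adjusted p up to 0.2). Defining keratinocyte markers were at or near 0: Krt14, Ivl and Lor had no read in any of the 6 libraries, and the 5 markers summed to at most 0.616 CPM. Tgm3, a transglutaminase of the cornified envelope that was not on the list, was at 1.55, 1.23 and 1.03 CPM against 53.2, 39.1 and 48.7 CPM. It fell by 5.09 on the log2 scale (SE 0.89, adjusted p = 0.00287), and stayed called without any 1 of the 6 libraries.

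In the trophoblast list 1 of 10 tested genes rose and none fell, with a median of -0.08 (-0.26 to 0.34 with 1 of the 6 libraries left out). It was Tfap2c, an AP-2 factor of trophoblast and germ cells that naive ES cells also make, at 122 CPM in LIF HP replicate 3 and 152.7 CPM in replicate 2, with replicate 1 close to the latter, and at 35, 29.6 and 34.3 CPM in CH+LIF HP. The rise was 2.11 on the log2 scale (SE 0.40, adjusted p = 0.00619), and the call was lost without CH+LIF HP replicate 2 (adjusted p = 0.0526). Of the 5 trophoblast markers, 3 had reads in LIF HP and none had a read in CH+LIF HP. Krt7, a keratin of simple epithelia, was at 7.21, 6.16 and 5.15 CPM and Gata3 at 5.15, 1.85 and 0 CPM, with no read of either in CH+LIF HP, which puts Krt7 at least 10.6-fold higher (adjusted p = 0.0753). Elf5 and Tpbpa were at 0 in all 6 libraries, and the 5 markers summed to 5.15 to 14.4 CPM in LIF HP. Their part in the rise of Tfap2c was not tested.

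Calcoco2 and Stra8 were among the largest rises. Calcoco2, also called NDP52, is an autophagy receptor, and was at 305, 503 and 242 CPM in LIF HP and 9.08, 9.06 and 16 CPM in CH+LIF HP. It rose by 4.96 on the log2 scale (SE 0.77, adjusted p = 0.000988) and stayed called without any 1 of the 6 libraries. Stra8, which retinoic acid induces at the entry into meiosis, was at 246, 357 and 161 CPM against 11, 5.72 and 10.7 CPM. It rose by 4.82 (SE 0.99, adjusted p = 0.0127), with the call lost without any 1 CH+LIF HP library or without LIF HP replicate 2 (adjusted p up to 0.0895). Cidea, a lipid droplet protein, was at 62.9, 51.1 and 71.1 CPM against 5.19, 4.29 and 5.33 CPM, a rise of 3.63 (SE 0.79, adjusted p = 0.0177). Apart from these and Krtdap, the 12 largest rises had at most 21.6 CPM in any of the 6 libraries. Npr3, the clearance receptor of natriuretic peptides, was at 13.4, 11.7 and 10.3 CPM against 0, 0.477 and 0.762 CPM, a ratio of 30 with an interval of 7.93 to 254. Oc90 had no read in CH+LIF HP and was at least 12.4-fold higher. Padi2, which converts arginine to citrulline in proteins, had a ratio of 25.7 (interval 6.72 to 218), and Adam11 one of 68.8 (interval 11.9 to 2759). Sema6a, Cap2 and Slc24a5 rose by 3.92, 3.70 and 3.61 on the log2 scale. Of these 8 genes, Cidea included, each lost its call in at least 5 of the 6 fits without 1 library, with adjusted p up to 0.274 for Cap2.

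Of 20 tested p53 list genes, 3 rose and none fell, 16 had a positive log2 fold change, and the median was 0.85. Cdkn1a, the cyclin-dependent kinase inhibitor p21, was at 503, 414 and 378 CPM in LIF HP and 98.6, 135 and 75.4 CPM in CH+LIF HP. It rose by 2.07 on the log2 scale (SE 0.37, adjusted p = 0.00394). Ccng1, cyclin G1, was at 115, 238 and 134 CPM against 36.3, 64.4 and 57.1 CPM, a rise of 1.63 (SE 0.37, adjusted p = 0.0232). Phlda3, an inhibitor of AKT, was at 91.2, 134 and 52.5 CPM against 17.5, 21 and 17.5 CPM, a rise of 2.31 (SE 0.48, adjusted p = 0.0137). None of the 3 had overlapping groups. Mdm2, the ubiquitin ligase of p53, was at 127, 152.1 and 106 CPM against 50, 66.8 and 39.6 CPM and missed the threshold (adjusted p = 0.0595), as did Eda2r (0.0596). Trp53 itself was at 10.3, 19.7 and 8.24 CPM against 33.1, 21.5 and 54.8 CPM, without a call (log2 fold change -1.48, adjusted p = 0.26). The call of Cdkn1a was lost without CH+LIF HP replicate 3 (adjusted p = 0.0513). That of Phlda3 was lost without any 1 CH+LIF HP library or without LIF HP replicate 2, and that of Ccng1 also without LIF HP replicate 3, with adjusted p up to 0.111 and 0.21.

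In the cell cycle list 2 of 26 tested genes fell and Cdkn1a rose, with a median of -0.46. With 1 of the 6 libraries left out the median ran from -0.52 to -0.28 with 0 to 3 calls. In the 6 libraries alone 1 gene was called higher and 6 lower, against 13.1% of all genes that fit tested. Cdk6, a G1 kinase, was at 4.64, 1.23 and 4.12 CPM in LIF HP and 51.3, 41 and 60.9 CPM in CH+LIF HP, a fall of 3.92 on the log2 scale (SE 0.87, adjusted p = 0.0184). Mki67, the proliferation marker, was at 76.8, 33.3 and 73.2 CPM against 189, 169 and 215 CPM, a fall of 1.65 (SE 0.36, adjusted p = 0.0186). LIF HP replicate 2 had the lowest value of both genes. Cenpf, a kinetochore protein and 1 of the abundant falls, was at 194, 107 and 201 CPM against 364, 415 and 489 CPM (log2 fold change -1.34, adjusted p = 0.0476). All 3 transcripts are long, and with exonic length taken into account the adjusted p of Cenpf was 0.129. In that fit Cdk6 and Mki67 kept their calls (edgeR adjusted p = 0.016 and 0.0149). The calls of Cdk6 and Mki67 were lost without CH+LIF HP replicate 1 or 3, LIF HP replicate 2 or 3 and, for Cdk6, also LIF HP replicate 1. Cenpf lost its call without any 1 of the 6, and adjusted p reached 0.137, 0.152 and 0.249 for Cdk6, Mki67 and Cenpf.

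**Figure D3:**
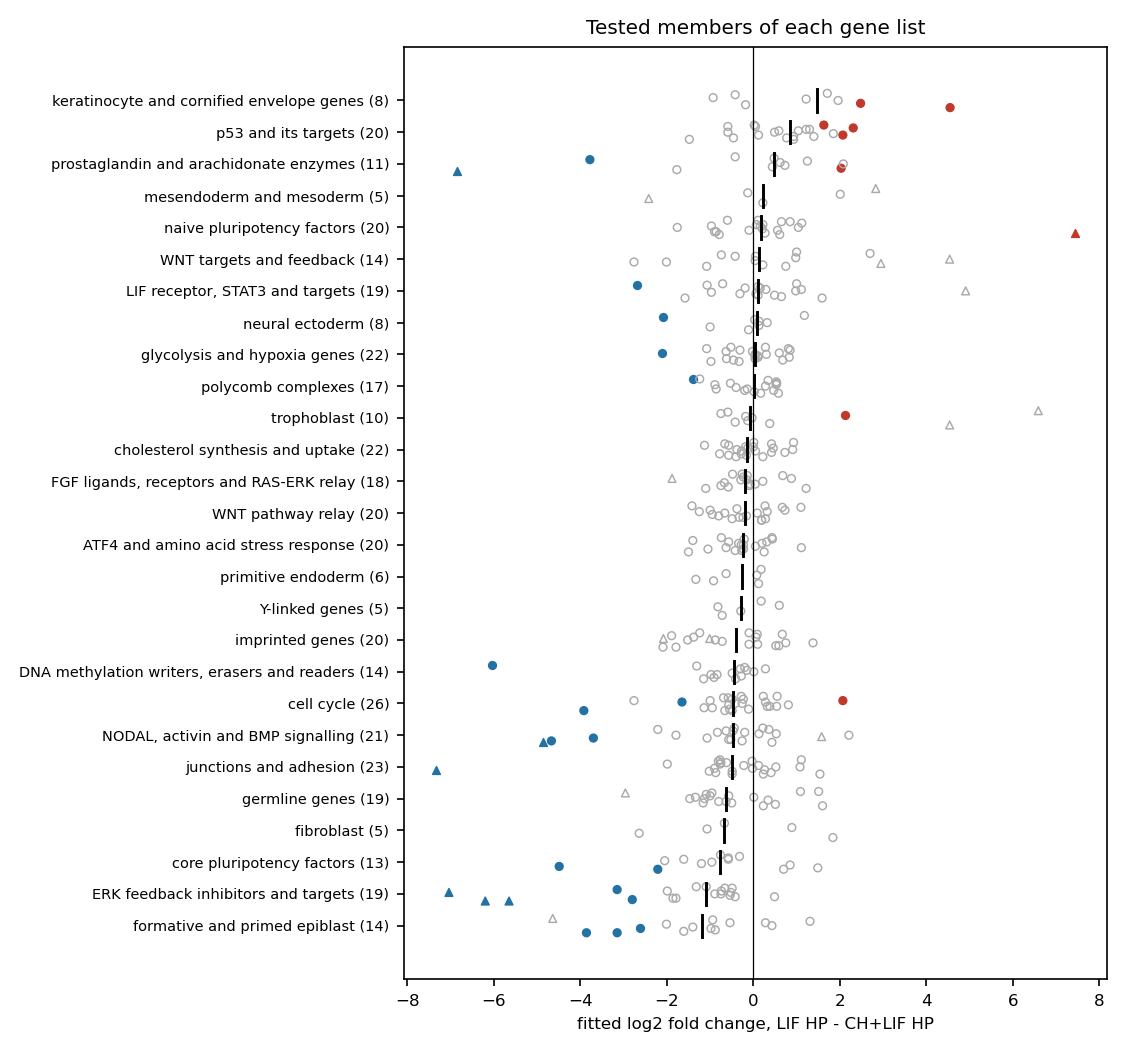
Log2 fold change of LIF HP over CH+LIF HP (horizontal axis) for each tested gene of each list (rows), with the median of the list as a bar and called genes coloured. Triangles are genes with 3 or fewer reads in 1 group, whose fitted size is not a measured fold. Medians of the ERK target and formative rows lie to the left of 0 and those of the p53 and keratinocyte rows to the right, and most rows hold 0 or 1 call.

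In the 6 libraries alone, where 333 list genes were tested, 28 were called higher and 73 lower. Over all genes this fit called 1176 of 8973 (13.1%), 610 higher and 566 lower. The number it tested in each list is not given here, so the counts below were not set against that share. Calls higher and lower numbered 3 and 4 in the LIF and STAT3 list, 1 and 6 in the core pluripotency list, 3 and 5 in that of junctions, 3 and 2 in that of prostaglandin enzymes, and 6 and 1 in the p53 list. In the formative and the NODAL and BMP lists 6 each were lower and none higher, and in the DNA methylation list 5 were lower and none higher. The keratinocyte list had 3 higher and none lower. The FGF list, the WNT target list and the ATF4 list each had 1 higher and 1 lower in this fit. The WNT relay list had 2 lower and none higher.

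Several lists held calls in both directions or single calls. In the prostaglandin and arachidonate list, 1 of 11 tested genes rose and 2 fell. Alox12, a lipoxygenase, was at 29.4, 24 and 35 CPM in LIF HP against 3.89, 11 and 6.09 CPM, a rise of 2.03 (SE 0.51, adjusted p = 0.0422). Ptgs1, the cyclooxygenase COX-1, had no read in LIF HP and 6.49, 7.63 and 8.38 CPM in CH+LIF HP, so it was at least 11.3-fold lower (adjusted p = 0.0304). Pla2g7, which breaks down platelet-activating factor, was at 2.06, 2.46 and 0 CPM against 15.6, 37.2 and 19 CPM, a fall of 3.78 (SE 0.92, adjusted p = 0.0333). All 3 calls were lost without any 1 of the 6 libraries, with adjusted p up to 0.213, 0.148 and 0.155 in that order. Gja1, the gap junction protein connexin 43, was the 1 call among 23 tested junction and adhesion genes. It had no read in LIF HP and 7.79, 15.7 and 7.62 CPM in CH+LIF HP, at least 16.8-fold lower (adjusted p = 0.0196, up to 0.111 without any 1 LIF HP library or CH+LIF HP replicate 2). Cdh1, E-cadherin, was at 306 to 627 CPM against 480 to 801 CPM, with overlap.

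Pdk1, the kinase that restrains pyruvate dehydrogenase, was the 1 call among 22 tested glycolysis and hypoxia genes, whose median was 0.04 (-0.15 to 0.07 with 1 of the 6 libraries left out). It was at 9.79, 10.5 and 11.3 CPM in LIF HP and 37.6, 53.9 and 44.2 CPM in CH+LIF HP. It fell by 2.11 on the log2 scale (SE 0.40, adjusted p = 0.00619) and stayed called without any 1 of the 6 libraries. Nefm, a neurofilament subunit, was the 1 call among 8 tested neural genes, at 39.7, 35.7 and 38.1 CPM against 155.7, 169 and 159 CPM. It fell by 2.09 (SE 0.44, adjusted p = 0.0148). Suz12, a subunit of polycomb repressive complex 2, was the 1 call among 17 tested polycomb genes, at 145.8, 101 and 120 CPM against 330, 261 and 369 CPM. It fell by 1.39 (SE 0.34, adjusted p = 0.0351), while the catalytic subunit gene Ezh2 had overlapping ranges. The call of Nefm was lost without 5 of the 6 libraries, all but CH+LIF HP replicate 3, and that of Suz12 without any 1 of the 6, with adjusted p up to 0.0988 and 0.201. None of 20 tested genes of the ATF4 amino acid response, 22 of cholesterol synthesis, 6 of primitive endoderm, 5 of mesendoderm, 5 of fibroblasts and 5 on the Y chromosome was called. None of the 14 genes of the 2-cell-like state had enough reads to be tested.

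Other leading falls lay outside the lists. Adam23, a membrane protein of the disintegrin family that has no active protease, was at 3.09, 0 and 2.06 CPM in LIF HP and 50.6, 116 and 118 CPM in CH+LIF HP. It fell by 5.72 on the log2 scale (SE 0.77, adjusted p = 0.000204). Trh, the precursor of thyrotropin-releasing hormone, was at 25.3, 38.8 and 22.7 CPM against 602, 560 and 344 CPM, a fall of 4.11 (SE 0.66, adjusted p = 0.0013). L1td1, an RNA-binding protein of pluripotent cells derived from a LINE-1 element, was at 186, 132 and 161 CPM against 619, 665 and 600 CPM, a fall of 1.98 (SE 0.40, adjusted p = 0.0108). Each of these had separate ranges. Manba, the lysosomal beta-mannosidase, had 2 reads in LIF HP and 21.4, 34.3 and 54.8 CPM in CH+LIF HP, a ratio of 81.1 with an interval of 22.1 to 675 (adjusted p = 0.000988). Enox1 was at 0.515, 1.23 and 0 CPM against 29.2, 32.4 and 34.3 CPM, a ratio of 48.2 with an interval of 16.2 to 236 (adjusted p = 0.000202). Tenm1, a teneurin of the X chromosome, had a ratio of 44.9 (interval 7.69 to 1809) and Kifc3, a minus-end directed kinesin, one of 40.3 (interval 6.87 to 1628). Adam23, Trh, Manba and Enox1 stayed called without any 1 of the 6 libraries. L1td1 lost its call without LIF HP replicate 2 or 3, and Tenm1 and Kifc3 without 5 of the 6, with adjusted p up to 0.0982, 0.126 and 0.125.

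Fold changes went with the length of the transcript. The median exonic length, counted as the union of annotated exons, was 1950 nt for genes called higher, 6277 nt for genes called lower and 4537 nt over 10641 tested genes with a length. Across genes, which are not independent replicates, log2 fold change and log2 length had a Pearson r of -0.273. In 5 equal bins of genes, from shortest to longest, median log2 fold changes were 0.42, 0.17, -0.00, -0.15 and -0.32. The shortest bin held 41 of the genes called higher and 10 called lower, and the longest held 3 and 35. Levels of the shortest bin, centred on each gene's mean over the series, had medians of 0.32, 0.73 and 0.52 on the log2 scale in the LIF HP libraries and 0.29, 0.22 and -0.08 in the CH+LIF HP libraries. For the longest bin they were -0.16, -0.67 and -0.27 against -0.13, -0.05 and 0.17, so LIF HP replicate 2 stood farthest out at both ends. With an offset in each library for its own length trend, 49 genes were called higher and 95 lower. Of these, 38 and 83 were also called without the offset, and their median lengths were 3894 nt for all higher and 4753 nt for all lower. All 22 of the firmest calls remained. The ERK target list kept a median of -1.55 with 6 members called. Calls lost with the offset numbered 25 of the 63 higher and 10 of the 93 lower. Among them were Arpc4, Cenpf, Sfn and Slc24a5, with adjusted p of 0.0644, 0.129, 0.103 and 0.0702. Elf3, Gpx3, Kif18a and Rbpj were others, with adjusted p of 0.112, 0.0648, 0.0648 and 0.0756.

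**Figure D4:**
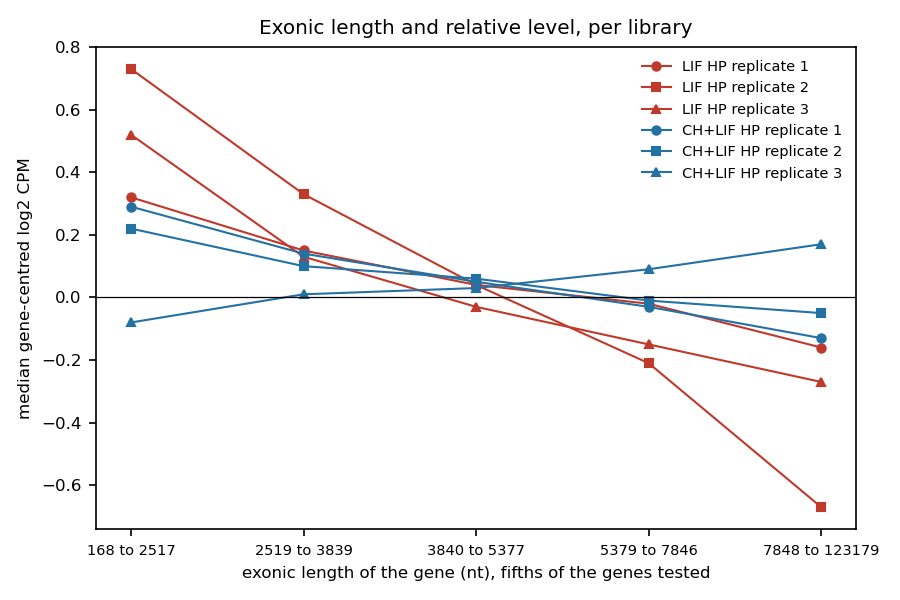
Median gene-centred log2 level (vertical axis) by bin of exonic length, shortest to longest (horizontal axis), 1 line per library of the 2 groups. LIF HP replicate 2 runs from 0.73 in the shortest bin to -0.67 in the longest, and CH+LIF HP replicate 3 runs the other way, from -0.08 to 0.17.

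The same pair of media at LP shows how far the difference belonged to HP. The difference between the HP and LP contrasts was called for 45 genes (0.423%), 24 of them higher in LIF HP relative to the LP contrast and 21 lower. Of the 45, 31 were also called between LIF HP and CH+LIF HP, all with the same sign. The HP contrast is part of this difference and comes from the same libraries, so the shared sign was largely fixed in advance. Dnmt3l was at 85.4, 134 and 114 CPM in LIF LP and 195, 199 and 132 CPM in CH+LIF LP, and its difference of contrasts was -5.40 on the log2 scale (SE 0.97, adjusted p = 0.0103). Utf1 was at 71.1, 77 and 108 CPM in LIF LP and 98.8, 102 and 135 CPM in CH+LIF LP, with a difference of contrasts of -4.10 (SE 0.93, adjusted p = 0.0459). Dusp6 was at 20.4, 15.3 and 47.1 CPM in LIF LP and 33.4, 41.8 and 38.7 CPM in CH+LIF LP (adjusted p of the difference 0.0301). At LP these genes were thus well above 0 in every library with LIF alone in the label. Krtdap had 0, 0 and 1.44 CPM in LIF LP and 2.91, 8.47 and 3.04 CPM in CH+LIF LP, on the opposite side from HP (adjusted p of the difference 0.000235). S100a13 was at 45.7, 15.9 and 43.3 CPM in LIF LP and 34.9, 55.7 and 124 CPM in CH+LIF LP, with a difference of contrasts of 4.53 (SE 0.82, adjusted p = 0.0103). Fam25c was at 124, 238 and 138 CPM against 132, 148.9 and 191 CPM, with a difference of contrasts of 3.07 (SE 0.54, adjusted p = 0.00897). For S100a13 and Fam25c the LP ranges overlapped, and at HP they did not. Ccnd2 was higher with LIF alone at LP, at 51.2, 37.8 and 47.6 CPM against 4.36, 7.26 and 0 CPM, and lower at HP, with a difference of contrasts of -6.24 (SE 0.98, adjusted p = 0.00337). Leaving out 1 library moved the number of genes called to between 5, in the absence of CH+LIF LP replicate 3, and 105, in that of 2i+LIF PO replicate 1. It was 6 without CH+LIF HP replicate 3, and under 20 without any 1 of the 6 HP libraries, any LIF LP library or CH+LIF LP replicate 2. Adam23 and Krtdap kept this call in every alternative run. Of the 45 genes, 5 kept it without any 1 of the 12 libraries of the 4 groups: Adam23, Ccnd2, Enox1, Krtdap and Trpm1, a cation channel gene named after its values were seen. The other 40 lost it in at least 1 of these 12 fits, and 34 were called in 6 or fewer of them. S100a13 and Fam25c lost it without replicate 3 of CH+LIF LP or of CH+LIF HP, with adjusted p up to 0.0763 and 0.0579. Dnmt3l was called in 10 of the 12 fits and Dusp6 in 4, with adjusted p up to 0.0638 and 0.096. Utf1 was called in none of them (adjusted p 0.0639 to 0.14).

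**Figure D5:**
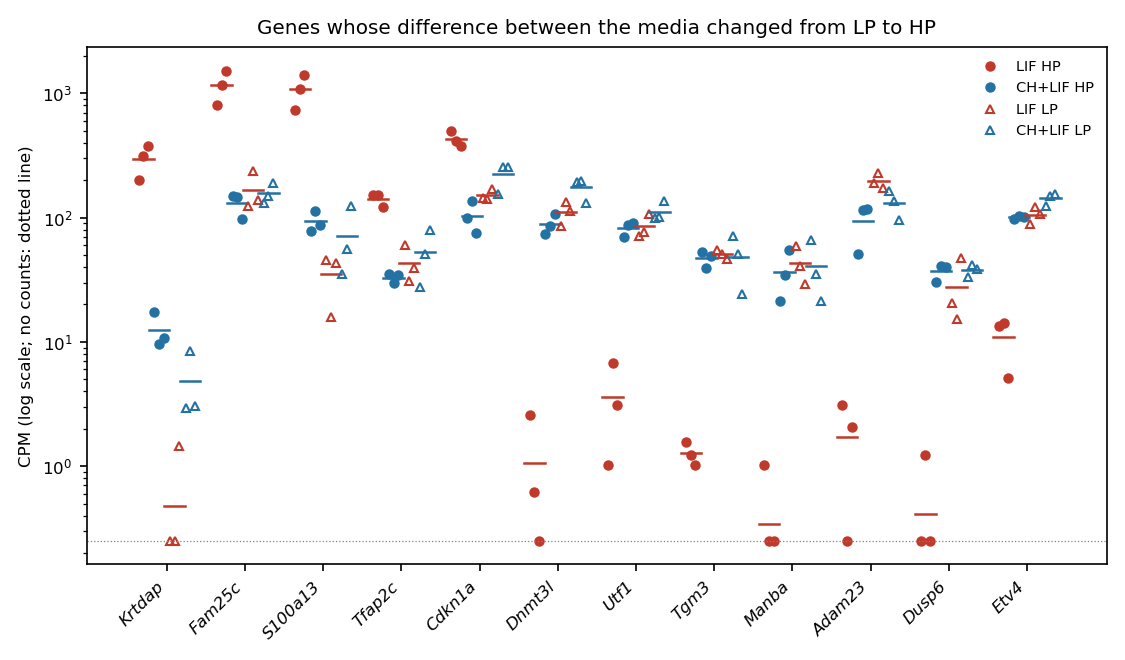
Levels in CPM (vertical axis, log scale) in LIF LP, CH+LIF LP, LIF HP and CH+LIF HP, 1 point per library, with bars at group means and libraries without a read on the dotted line. Krtdap, Fam25c and S100a13 are highest in LIF HP, while Dusp6, Dnmt3l and Utf1 are low in LIF HP alone of the 4 groups.

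Across the other groups of the series, several of these genes had their most extreme mean in LIF HP. Mean levels of Krtdap were 295 CPM in LIF HP and at most 32.5 CPM, in 2i+LIF HP, in the other 6 groups. Fam25c had 1168 CPM in LIF HP and 131 to 304 CPM elsewhere, and S100a13 had 1077 CPM and 35 to 223 CPM. Calcoco2 was nearer to another group, with a mean of 350 CPM against 234 CPM in 2i+LIF PO. Dnmt3l had 1.06 CPM here, 6.96 CPM in 2i+LIF HP and at least 44.9 CPM in the other groups, and Utf1 at 3.63, 3.01 and at least 43.6 CPM in the same order. Bmp4 had 32.4 CPM here, 81.5 and 82.8 CPM in 2i+LIF HP and 2i+LIF PO, and at least 421 CPM elsewhere. These groups were not tested against each other here, and 2i+LIF PO carried another run number than the rest.

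Whole chromosomes were compared because long culture of ES cells can bring gains and losses. Of 20 chromosomes, 2 had a median that differed between LIF HP and CH+LIF HP in limma's test over the chromosomes. Chromosome 8 was higher by 0.10 on the log2 scale (SE 0.0306, adjusted p = 0.0367), and X lower by 0.20 (adjusted p = 0.0367). Without any 1 of the 6 libraries no chromosome was called, and none was with the replicate number as a block. With the offset for exonic length X was called, at -0.25 (adjusted p = 0.018), and chromosome 8 was not.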

How the data were processed

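RNA from E14Tg2a cells, extracted with the RNeasy Plus Mini Kit, went into mRNA libraries from 125 ng of total RNA at a sequencing service, per the labels' protocols. The submitters' processing notes name bcl2fastq, STAR 2.6.0a, HTSeq and mm10. The deposited tables hold counts of reads per gene, 31053 gene IDs and 5 closing entries each, which were left out. The strand setting is not given in the sources used here, so reads of overlapping genes on opposite strands cannot be told apart. Of the genes called, 15 higher and 30 lower overlapped another listed gene. Gene names, positions and lengths came from GENCODE M21 (GRCm38), which held 31011 of the IDs.

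All 21 libraries (7 groups of 3) were fitted in edgeR 4.0.16 (R 4.3.3) with TMM scaling, filterByExpr and 1 coefficient for each group, which left 14 residual degrees of freedom. The two-sided p-values were adjusted by Benjamini-Hochberg over the 10643 genes tested. Levels are counts scaled to CPM by the TMM effective library size. Ratios and bounds use counts pooled over a group and the same sizes, and their intervals cover counting error only. A gene with 0 reads is bounded by 3 counts over the group. The fit was tested on simulated data. Chromosome medians used limma 3.58.1. Alternatives were DESeq2 1.42.0, limma-voom, other scalings and filters, thinned counts, the 6 libraries alone, a replicate block and leaving out each library. A per-library offset for exonic length, a lowess of span 0.3, and the leave-one-out fits and block of the 6 libraries were added after seeing the data.

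The comparison, its gene lists and tests were chosen with earlier results of these data known, so lists are described by counts and medians and not tested. Of 555 distinct list genes 7 were unmatched or ambiguous. Values of some list genes are not reported here. Named genes are those of the lists and, among called genes with at least 5 CPM in 1 group and no overlap of CPM, the 12 largest rises and falls and the 5 most abundant each way. For the difference between HP and LP they are the 3 largest each way. Replicates of 1 group differed by more than sampling noise (chi-square per degree of freedom of 4.82 to 19.1).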

Additional observations from a re-analysis of the deposited data

Results flagged for a closer look

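The contrast of LIF with CH+LIF differed between HP and LP for 45 genes by edgeR's test of the difference. Only Adam23, Ccnd2, Enox1, Krtdap and Trpm1 kept this call without any 1 of the 12 libraries of the 4 groups. Of 12 such fits, Tgm3, Egr1, Tfap2c and Epb41l4a were called in 1, Lad1 and Robo4 in 2, Cdkn1a in 3, Dusp6, S100a6 and Slc39a14 in 4, Etv4 and Zfp462 in 7, Manba in 9, and Dnmt3l, Fam25c and S100a13 in 10, while Utf1, Etv1 and Kif11 were called in none. Of the genes named, those lower in LIF HP relative to the LP contrast were Adam23, with a difference of contrasts of -6.29 on the log2 scale, Ccnd2 (-6.24), Dnmt3l (-5.40), Tgm3 (-5.15), Slc39a14 (-4.12), Utf1 (-4.10), Zfp462 (-3.37), Etv1 (-2.96), Etv4 (-2.72), Epb41l4a (-2.52) and Kif11 (-1.98). Those higher were S100a13 (4.53), Trpm1 (3.87), S100a6 (3.49), Fam25c (3.07), Cdkn1a (2.61) and Tfap2c (2.38). For genes with 3 or fewer reads in a group no size is given. The adjusted p of their difference was 0.000235 for Krtdap, 0.00897 for Enox1, 0.0123 for Manba, 0.0301 for Dusp6, 0.0322 for Robo4, 0.0459 for Egr1 and 0.0472 for Lad1. Robo4, a receptor of endothelial cells, was at 0.515, 0 and 0 CPM in LIF HP against 4.54, 12.4 and 8.38 CPM in CH+LIF HP. At LP it was at 14.9, 7.3 and 19.7 CPM with LIF and 1.94, 4.24 and 0 CPM with CH+LIF, the opposite order. Lad1, ladinin, was at 21.6, 16.6 and 8.24 CPM in LIF HP against 5.84, 2.86 and 1.52 CPM, and at LP at 1.1, 0 and 0 CPM against 1.94, 3.03 and 2.28 CPM. Neither was called at HP (adjusted p = 0.0514 and 0.0528).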

How the results depend on the processing

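Settings moved the counts of calls. For the 63 and 93 genes called between LIF HP and CH+LIF HP, the total was 357 by DESeq2, 326 with all genes of at least 1 read, 1176 with the 6 libraries alone and 1420 by limma-voom with quality weights. It was 758 without 2i+LIF PO and 2i+LIF LP replicate 1 together, 29 to 316 when 1 of the 21 libraries was left out, 909, 517, 595, 1523, 976 and 626 when CH+LIF HP replicates 1 to 3 and LIF HP replicates 1 to 3 were left out of the 6 alone, and 893 in the 6 with the replicate number as a block. For the 45 genes of the difference between HP and LP these counts were 134, 171, 592 and 914, then 349 without both and 5 to 105 with 1 left out. For the 30 list genes they were 47, 53, 101 and 107, then 72 without both, 10 to 48 with 1 left out, 85, 61, 75, 107, 94 and 73 with the same libraries left out of the 6 alone, and 88 in the 6 with the block. Of 2 chromosomes called, the count was 1 with genes of at least 10 CPM, 7 with the 6 libraries alone, 0 with the block, 0 with any 1 of the 6 left out and 1 with the length offset. No called gene changed sign in a run that fitted it, but all runs reused libraries of these groups. Medians of 9 lists crossed 0 in at least 1 alternative: WNT targets, WNT relay, LIF and STAT3, mesendoderm, trophoblast, neural, glycolysis, polycomb and Y-linked genes. Beyond the fewer samples or genes the cause was not tested. Replicate numbers did not pair the samples: deviations of same-numbered libraries had correlations of -0.127, 0.105 and -0.0494. With the number as a block, 171, 39 and 32 were called. At these depths a gene with no read in a library may reach 1.43 to 3.09 CPM.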

Other observations

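The called genes given here lie outside the lists. They were chosen after their values were seen, and no list, count or test of a pathway stands behind them. Kif11, the motor that separates spindle poles, was at 18.6, 29.6 and 33 CPM in LIF HP and 99.3, 88.3 and 96.7 CPM in CH+LIF HP. It fell by 1.82 on the log2 scale (SE 0.33, adjusted p = 0.004 by edgeR). Aspm, a spindle pole protein, Knl1, a kinetochore scaffold, Ttk, the checkpoint kinase MPS1, and Kif18a, a kinesin, fell by 1.88, 1.73, 1.35 and 1.56 on the log2 scale. Kif11 stayed called without any 1 of the 6 libraries, and Aspm, Knl1, Ttk and Kif18a did not (adjusted p up to 0.0988, 0.188, 0.226 and 0.176). With the offset for exonic length Kif18a lost its call (adjusted p = 0.0648), as did Cenpf, and Kif11, Aspm, Knl1 and Ttk kept theirs.

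Jag1, a Notch ligand, fell, at 2.58, 4.31 and 0 CPM against 24.7, 25.3 and 10.7 CPM (log2 fold change -2.97). Rbpj, the DNA-binding partner of Notch, fell, at 33, 36.3 and 36.1 CPM against 94.7, 131 and 150 CPM (log2 fold change -1.83). Rbpj lost its call with the length offset (adjusted p = 0.0756), and both lost it without 5 of the 6 libraries (adjusted p up to 0.0872 and 0.0988). Ddx58, the RNA sensor RIG-I, fell by 3.13 and stayed called without any 1 of the 6 libraries.

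Among the rises, Gpx3 and Gpx4, the peroxide-reducing glutathione peroxidases, were at 61.3, 91.1 and 29.9 CPM against 4.54, 17.7 and 9.14 CPM and at 49, 113 and 155.6 CPM against 17.5, 29.6 and 11.4 CPM. Their log2 fold changes were 2.51 and 2.41. Elf3, an epithelial ETS factor, and Spic, another ETS factor, rose by 1.92 and 3.15. Gpx3 and Elf3 lost their call with the length offset (adjusted p = 0.0648 and 0.112), and all 4 lost it without at least 4 of the 6 libraries.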
